A study of Mus musculus with 4 samples.

Results

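The genes described here carry signals from the tumour necrosis factor (TNF) receptors to the NF-kB transcription factors. They are 33 genes chosen by symbol, out of 22026 genes listed in each library, and all 33 have an entry and passed the filter on low values used for testing. They were divided by role into 10 genes of the receptors, TRAF adaptors and receptor complex, 9 kinases and kinase adaptors, 5 NF-kB subunits, and 9 inhibitors and IkB proteins. RNA levels were compared in bone marrow derived macrophages of C57BL/6 mice, with 2 libraries labelled WT (the wildtype control) and 2 labelled RBP-J KO (genotype Rbpj f/f;LysM cre). In the RBP-J KO mice the floxed Rbpj allele is deleted by a Cre recombinase expressed from the Lyz2 (LysM) locus, which is active in myeloid cells, and cells that escape the deletion can remain in the culture. The labels do not state whether control mice carried the Cre or the floxed allele. Marrow of all 4 libraries came from mice aged 8 weeks and was grown for 3 days in CMG14-12 supernatant, equal to 20 ng/ml M-CSF, the growth factor of macrophages. No TNF or microbial stimulus is named in the labels.

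TNF binds 2 receptors, TNFR1 and TNFR2. TNFR1 recruits TRADD and the kinase RIPK1, and both receptors engage TRAF proteins and the ubiquitin ligases cIAP1 and cIAP2. The ubiquitin chains made there bring in TAK1 and the IKK complex, which marks IkB inhibitors for destruction and so frees NF-kB dimers to enter the nucleus. A separate, noncanonical branch runs through the kinase NIK, which TRAF3 and the cIAPs keep low, and ends in the processing of the precursor encoded by Nfkb2. Several inhibitors, among them IkB-alpha and A20, are themselves induced by NF-kB and close a feedback loop. In macrophages this pathway drives the inflammatory response, and together with RANK signals it takes part in osteoclast formation. RBP-J is the DNA-binding protein of the Notch pathway, and the study asks which mRNAs it regulates in these cells.

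Values are FPKM (fragments per kilobase of transcript, scaled to library size), and their absolute scale is uncertain, so that folds between libraries are the main quantity. Rbpj was at 355 and 573 FPKM in WT against 51.5 and 77 FPKM in RBP-J KO (replicates 1 and 2 of each), both RBP-J KO libraries lying below both WT libraries. This was a 7.06-fold difference (log2 difference -2.82, SE 0.34, limma adjusted p = 0.457). The replicate numbers also differ technically and by animal: replicate 1 was deposited per gene and replicate 2 per transcript, and Xist stood at 268 and 290 FPKM in replicate 2 but at 0 in replicate 1, while the Y-linked Ddx3y stood at 193 and 174 FPKM in replicate 1 and at 0 in replicate 2. RBP-J KO is therefore also compared with WT inside each replicate number, called pair 1 and pair 2. The macrophage markers (8 of 9 with an entry, Csf1r and Emr1 among them) summed to between 14563 and 19140 FPKM, with none at 0. Neutrophil markers (11 genes) summed to 7270 FPKM in WT against 8688 FPKM in RBP-J KO of pair 1, and to 284 and 1031 FPKM in pair 2. Dendritic cell markers (8 genes) summed to 32.2 and 180 FPKM in pair 1 and to 42.4 and 26.1 FPKM in pair 2. Of these, Zbtb46 was listed at 0 in WT replicate 1, Flt3, Zbtb46, Xcr1, Ccl22 and Ccr7 in WT replicate 2, and Zbtb46, Cd209a and Ccr7 in RBP-J KO replicate 2. Lists for B cells, T and NK cells, mast cells and stroma each summed to at most 42.3 FPKM. The erythroid and megakaryocyte list summed to between 2520 and 4301 FPKM, nearly all of it Pf4, with Klf1 and Car1 at 0 in every library. Fewer cells of a type and less RNA per cell cannot be told apart in these bulk samples, and the part of other cell types in the results below was not tested.

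Several of these genes are targets of NF-kB themselves, and 5 promoters of subunits and inhibitors that hold the kappaB motif are printed as examples. They were picked, after values were seen, from the 8 genes of those role groups with a match, and Bcl3, Cyld and Nfkbie are not printed. RefSeq promoter windows of build GRCm38.p6, from 250 bases before to 50 bases after a start site, matched 28 of the 33 genes, with 39 windows in all. Ikbkb, Nfkb1, Nfkbiz, Relb and Tradd had no window. The kappaB consensus of NF-kB, searched on both strands, was present in 16 of the 39 windows (41.0%) and in 8.46% of all 32851 windows. Overlapping windows of 1 gene can share a match. The 11 genes with a match were Bcl3, Cyld, Map3k7, Nfkb2, Nfkbia, Nfkbie, Rel, Tank, Tnfaip3, Tnip1 and Traf3. The RBP-J core motif TGGGAA was present in 7 of the 39 windows (17.9%) and in 25.6% of all windows, on either strand. The longer form GTGGGAA, which contains TGGGAA, was found in 1 of the 39 windows (2.56%, against 6.38% of all windows), that of Rel, where it begins at position 30 of the transcript. In the 250 bases upstream of the start, below, capitals mark kappaB matches, and a run of more than 10 capitals holds matches that overlap. The stretches, each read 5′ to 3′ along the gene, are chr19:46304487-46304736 on the plus strand for Nfkb2, chr11:23770970-23771219 on the minus strand for Rel, chr12:55492648-55492897 on the minus strand for Nfkbia, chr10:19015411-19015660 on the minus strand for Tnfaip3, chr11:54962941-54963190 on the minus strand for Tnip1.
Nfkb2: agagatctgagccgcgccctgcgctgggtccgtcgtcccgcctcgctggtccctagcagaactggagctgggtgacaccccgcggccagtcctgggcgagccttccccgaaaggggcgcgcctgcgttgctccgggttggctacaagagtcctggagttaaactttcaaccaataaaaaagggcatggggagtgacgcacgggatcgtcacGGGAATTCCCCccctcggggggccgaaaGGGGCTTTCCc
Rel: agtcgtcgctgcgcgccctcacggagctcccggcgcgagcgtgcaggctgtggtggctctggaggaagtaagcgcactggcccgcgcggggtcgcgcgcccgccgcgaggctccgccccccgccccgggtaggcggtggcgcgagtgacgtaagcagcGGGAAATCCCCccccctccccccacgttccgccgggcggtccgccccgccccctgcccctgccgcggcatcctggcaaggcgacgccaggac
Nfkbia: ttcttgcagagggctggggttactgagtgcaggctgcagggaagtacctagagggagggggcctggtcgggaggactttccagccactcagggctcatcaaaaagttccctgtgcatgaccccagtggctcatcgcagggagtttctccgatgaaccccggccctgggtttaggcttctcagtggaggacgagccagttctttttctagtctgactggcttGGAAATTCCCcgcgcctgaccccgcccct
Tnfaip3: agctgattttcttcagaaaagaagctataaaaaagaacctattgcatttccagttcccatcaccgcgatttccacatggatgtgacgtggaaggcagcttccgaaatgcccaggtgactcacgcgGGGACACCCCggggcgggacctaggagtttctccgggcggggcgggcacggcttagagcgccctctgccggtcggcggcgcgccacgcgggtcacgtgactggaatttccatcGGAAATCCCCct
Tnip1: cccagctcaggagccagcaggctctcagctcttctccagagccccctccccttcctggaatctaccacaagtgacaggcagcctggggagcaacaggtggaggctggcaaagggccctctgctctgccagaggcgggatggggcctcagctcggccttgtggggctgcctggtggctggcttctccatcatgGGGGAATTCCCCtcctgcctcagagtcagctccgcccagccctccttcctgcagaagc
In Nfkb2 the matches begin at positions -39, -38 and -11 from the start site, in Rel at -92 and -91, in Nfkbia at -29, in Tnfaip3 at -125 and -12, and in Tnip1 between -58 and -56. A match describes these letters only and does not show that a factor binds there in these cells.

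Of the 33 genes, 25 differed by less than 1.5-fold between RBP-J KO and WT inside both pairs. The exceptions in at least 1 pair were Birc3, Nfkbie, Nfkbiz, Relb, Tnfaip3, Tnfrsf1b, Tnip1 and Traf1. With limma on log2(FPKM + 1), 0 of 33 genes had an adjusted p under 0.05, as did 0% of the 11851 genes tested, Rbpj included. At an unadjusted p under 0.05 there were also 0 of 33, against 4.42% of all genes, and the smallest unadjusted p was 0.0979, for Tnip1. With the replicate number as a block in the fit, 4 of 33 members and 1557 of the 11851 genes were under that threshold, and again none passed after adjustment. In the limma fit without that block, the adjusted p of every member was 0.999. The median log2 difference was 0.10 over the 33 genes and -0.05 over all genes tested. In pair 1 the median was 0.25 (all genes -0.05), and 26 of 33 were higher in RBP-J KO, against 44.1% of all genes. In pair 2 it was 0.01 (all genes -0.02), and 18 of 33 were higher, against 46.2%. The small shift upwards therefore lay mainly in pair 1. In that pair all 8 dendritic cell markers and 9 of 11 neutrophil markers were higher in RBP-J KO. In pair 2, 4 of the 8 dendritic cell markers were higher and 2 lower, and 11 of 11 neutrophil markers were higher. Whether cell types have a part in the shift was not tested. Without RBP-J KO replicate 1 the median was 0.01 over the 33 genes and -0.085 over all genes tested. Leaving out 1 library turned the direction of 19 of the 33 genes. The other 14 were Bcl3, Birc3, Map3k14, Nfkb1, Nfkbie, Nfkbiz, Rel, Relb, Tnfaip3, Tnfrsf1b, Tnip1, Tradd, Traf2 and Traf5. These fits hold the replicate numbers unequally in the groups and have no term for them, so that group and replicate number are mixed. Among the 19, Birc2, Chuk, Ikbkg, Rela, Tbk1, Tnfrsf1a, Tnip2 and Traf3 had the same sign in both pairs. Among the 14, Birc3 had opposite signs in the pairs.

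Taken by sign, 16 genes (48.5%) were higher in RBP-J KO in both pairs, where 25.1% of all genes were, and 5 (15.2%) were lower in both, where 34.1% of all genes were. Under upper-quartile scaling the counts were 21 and 2, and under quantile normalization 19 and 2. Both RBP-J KO libraries lay above both WT libraries for 7 genes (21.2%, background 11.7%), namely Tnfrsf1b, Map3k14, Nfkb1, Relb, Bcl3, Nfkbie and Tnip1. They lay below for 1 gene, Tnfaip3 (3.03%, background 18.2%). Past 1.5-fold in each pair lay 1 gene upwards, Nfkbiz (3.03%, background 3.86%), and none downwards (background 3.63%). These shares past 1.5-fold in both pairs are near or below those of all genes. In pair 1 alone 7 genes (21.2%) were at least 1.5-fold higher (background 10.3%) and none lower (background 12.1%). In pair 2 alone 1 gene (3.03%) was higher (background 6.48%) and 2 (6.06%) were lower (background 8.18%).

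**Figure D1:**
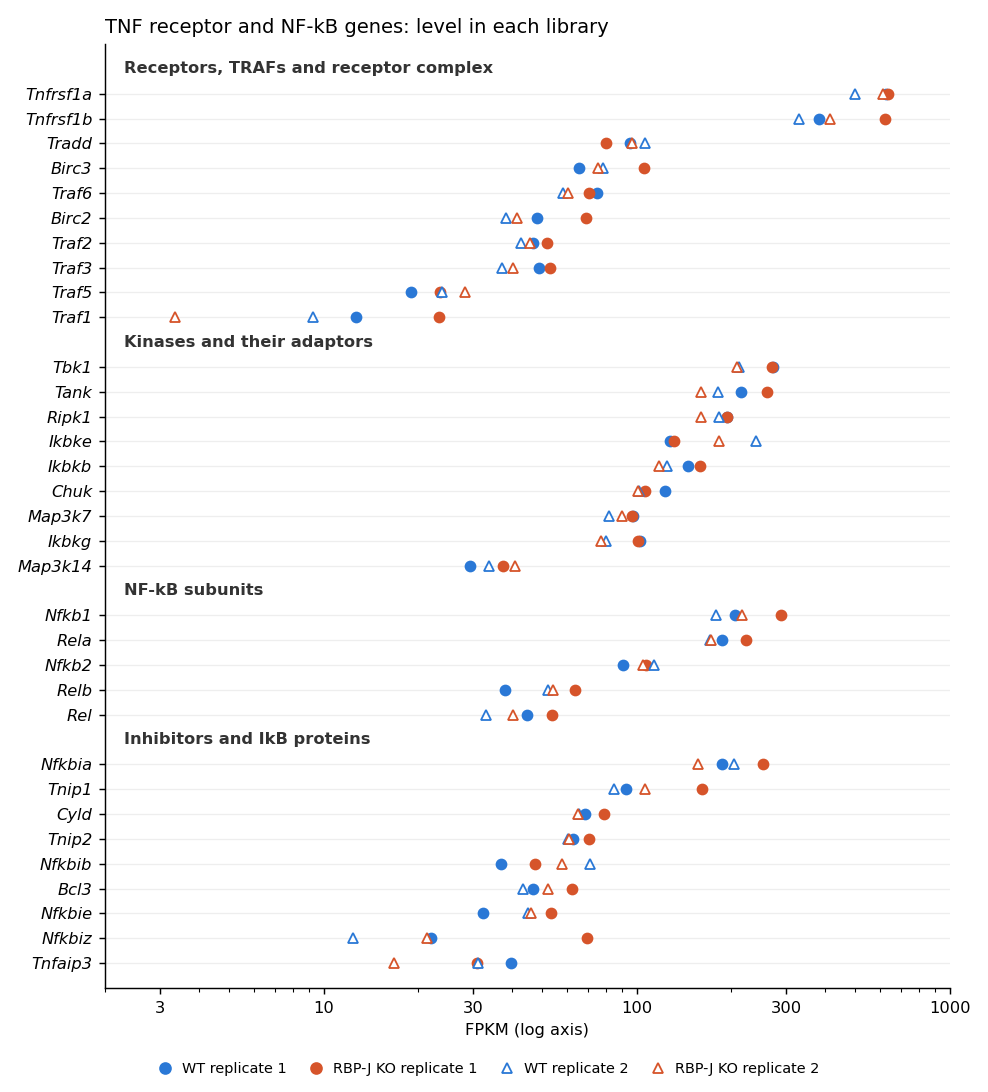
Level of each of the 33 genes in the 4 libraries (horizontal axis, FPKM on a log axis), grouped by role and ordered by mean level; filled circles are replicate 1, open triangles replicate 2, blue WT and orange RBP-J KO. Inside both pairs 25 of the 33 genes differ by less than 1.5-fold, and Nfkbiz, Traf1 and Tnfaip3 have the widest gaps inside a pair.

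Among the receptors, Tnfrsf1a, which encodes TNFR1, the widely expressed receptor with a death domain, had the highest level of all 33 genes. It was at 625 and 499.6 FPKM in WT against 634 and 612 FPKM in RBP-J KO (replicates 1 and 2, here and below). The values in RBP-J KO lay beside the higher WT value, and the log2 difference was 0.16 (SE 0.20). Tnfrsf1b, which encodes TNFR2, the receptor without a death domain that binds TRAF2 directly, was at 382 and 331 FPKM in WT against 620 and 414 FPKM in RBP-J KO. Both RBP-J KO libraries were above both WT libraries, by 1.62-fold in pair 1 and 1.25-fold in pair 2. The log2 difference of Tnfrsf1b was 0.51 (SE 0.26, 95% interval -0.19 to 1.21), which did not pass the test. Tradd, the adaptor that TNFR1 recruits, was at 95.3 and 107 FPKM in WT against 80 and 96.8 FPKM in RBP-J KO, and the groups overlapped.

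The TRAF genes split between steady and variable members. Traf2, the adaptor of both receptors, was at 46.6 and 42.8 FPKM in WT against 51.8 and 45.6 FPKM in RBP-J KO. Traf3, the brake on NIK, was at 48.7 and 37.2 FPKM in WT against 52.8 and 40.2 FPKM in RBP-J KO. Traf5, a close relative of Traf2, and Traf6, which serves the IL-1, Toll-like and RANK receptors, had log2 differences of 0.26 (SE 0.25) and -0.02 (SE 0.23). For Traf6 the sign turned under upper-quartile scaling and quantile normalization. Traf1, which lacks the RING domain of other TRAFs and is itself induced by NF-kB, was the lowest of the 33 genes and went opposite ways in the pairs. Pair 1 had 12.7 FPKM in WT against 23.4 FPKM in RBP-J KO, and pair 2 had 9.26 against 3.34 FPKM. The direction of Traf1 over all libraries (log2 difference -0.20, SE 0.88) turned when WT replicate 1 was omitted, and likewise for RBP-J KO replicate 2. With each of the 4 libraries left out it ranged from -1.45 to 1.04.

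Birc2 and Birc3 encode cIAP1 and cIAP2, ubiquitin ligases that act with TRAF2 at the receptor. Birc2 was at 47.9 and 38.3 FPKM in WT against 68.9 and 41.4 FPKM in RBP-J KO. Birc3, an NF-kB target, was at 65.5 and 77.8 FPKM in WT against 106 and 75.4 FPKM in RBP-J KO. For both genes RBP-J KO replicate 1 was the highest library, and the groups overlapped. That library also had the highest summed markers of macrophages, neutrophils, dendritic cells, B cells, T and NK cells, and mast cells and basophils. For the erythroid and stromal lists another library was highest. The part of cell types was not tested.

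The kinases were the role group with no gene past 1.5-fold in either pair. Of 9 genes, 1 was higher in RBP-J KO in both pairs (background 25.1%) and 3 were lower in both (background 34.1%). The median log2 difference was -0.01. Tbk1, a kinase related to the IKKs that acts in interferon induction, was at 273 and 212 FPKM in WT against 272 and 209 FPKM in RBP-J KO. The replicate numbers of Tbk1 differed more than the groups did, and the 95% interval of its log2 difference ran from -0.65 to 0.63. Its sign turned under upper-quartile scaling and quantile normalization. Ripk1, the receptor-bound kinase and scaffold, was at 194 and 183 FPKM in WT against 194 and 161 FPKM in RBP-J KO. Map3k7, which encodes TAK1, the kinase upstream of the IKKs, was at 97.7 and 81.4 FPKM in WT against 96.5 and 89.9 FPKM in RBP-J KO.

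The IKK complex has 3 genes on the list. Chuk, the IKK-alpha kinase needed for the noncanonical branch, was at 123 and 101 FPKM in WT against 107 and 101 FPKM in RBP-J KO. Ikbkb, the IKK-beta kinase of the canonical branch, was at 146 and 125 FPKM in WT against 159 and 118 FPKM in RBP-J KO. Ikbkg, which encodes NEMO, the regulatory subunit, was at 103 and 79.5 FPKM in WT against 101 and 76.8 FPKM in RBP-J KO. In each of these genes the groups overlapped. The 95% intervals of the log2 differences were -0.63 to 0.42 for Chuk, -0.61 to 0.65 for Ikbkb and -0.70 to 0.63 for Ikbkg. A level 1.5-fold lower in RBP-J KO thus lies within the intervals of all 3. Ikbkg turned sign under upper-quartile scaling and quantile normalization.

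Map3k14, which encodes NIK, was the only kinase whose groups did not overlap in these 4 libraries. It was at 29.4 and 33.7 FPKM in WT against 37.4 and 40.9 FPKM in RBP-J KO, with folds of 1.26 and 1.21 inside the pairs (log2 difference 0.31, SE 0.21). This did not pass the test. Ikbke, an inducible kinase related to Tbk1, was at 127 and 240 FPKM in WT against 132 and 183 FPKM in RBP-J KO. Tank, an adaptor of both kinases, was at 215 and 182 FPKM in WT against 261 and 161 FPKM in RBP-J KO. The pairs of Ikbke and of Tank differed in sign.

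Of the 5 NF-kB subunits, 4 were higher in RBP-J KO in both pairs (background 25.1%) and none was lower in both (background 34.1%). None passed the test. The median log2 difference was 0.26 in pair 1 and 0.06 in pair 2. Nfkb1, the gene of the p105 precursor and the p50 subunit, was at 206 and 179 FPKM in WT against 289 and 217 FPKM in RBP-J KO. Both RBP-J KO libraries were above both WT libraries, by 1.40-fold and 1.21-fold inside the pairs (log2 difference 0.38, SE 0.23, 95% interval -0.22 to 0.98). Rela, the p65 subunit that pairs with p50, was at 187 and 171 FPKM in WT against 223 and 173 FPKM in RBP-J KO. The values of Rela in pair 2 differed by 1.01-fold. Rel, the c-Rel subunit of blood cells, was at 44.7 and 33 FPKM in WT against 53.5 and 40.2 FPKM in RBP-J KO. Its differences were alike in the pairs, at 1.19-fold and 1.21-fold, but the replicate numbers differed by more and the groups overlapped. Of the promoters printed above, that of Rel is the one with both a kappaB match and, past its start, GTGGGAA.

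The noncanonical subunits differed from each other. Relb, the partner of p52, was at 38.1 and 52 FPKM in WT against 63.6 and 54.1 FPKM in RBP-J KO, with folds of 1.65 and 1.04 inside the pairs. The groups did not overlap, but the distance between them in pair 2 was small. Nfkb2, the gene of the p100 precursor and the p52 subunit, was at 90.6 and 113 FPKM in WT against 107 and 105 FPKM in RBP-J KO. The pairs of Nfkb2 differed in sign, and the log2 difference was 0.06 (SE 0.21). Its printed promoter holds 3 kappaB match positions and no TGGGAA.

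The inhibitors and IkB proteins held both ends of the range. Of 9 genes, 5 were higher in RBP-J KO in both pairs (background 25.1%) and 1 was lower in both (background 34.1%). The medians were 0.41 in pair 1 and 0.01 in pair 2. Nfkbiz, which encodes IkB-zeta, an atypical nuclear IkB protein that switches on secondary response genes, had the largest difference of the 33 over all libraries. It was at 22 and 12.4 FPKM in WT against 69.3 and 21.5 FPKM in RBP-J KO. The difference was 3.06-fold in pair 1 and 1.67-fold in pair 2, yet RBP-J KO replicate 2 lay just below WT replicate 1, so that the groups overlapped. The log2 difference was 1.18 (SE 0.64, 95% interval -0.52 to 2.88). It did not pass the test. The size of the difference depended on the libraries used. It was 0.355 without RBP-J KO replicate 1, smaller than those of Traf1 (-1.45) and Tnfaip3 (-1.02) in the same fit, and 2.001 without RBP-J KO replicate 2. These fits hold the replicate numbers unequally in the groups. Inside the pairs, the log2 difference of Nfkbiz was 1.613 and 0.742. Of the neutrophil markers, 9 of 11 were higher in RBP-J KO in pair 1 (Ngp and Ltf were lower) and 11 of 11 in pair 2. All 8 dendritic cell markers were higher in pair 1, while in pair 2, 4 were higher and 2 lower (Itgax and Cd209a). Whether cell types have a part in the difference of Nfkbiz was not tested.

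Tnfaip3 encodes A20, the ubiquitin-editing enzyme that ends TNF signalling, and it was the 1 gene whose RBP-J KO libraries were both below both WT libraries. It was at 39.5 and 31 FPKM in WT against 30.8 and 16.7 FPKM in RBP-J KO. The highest RBP-J KO value lay only just under the lowest WT value. The difference was 1.27-fold in pair 1 and 1.81-fold in pair 2 (log2 difference -0.60, SE 0.37, 95% interval -1.58 to 0.37). Tnip1 encodes ABIN1, a ubiquitin-binding partner of A20, and it lay the other way. It was at 92.5 and 84.9 FPKM in WT against 162 and 106 FPKM in RBP-J KO, without overlap. The difference was 1.74-fold in pair 1 and 1.25-fold in pair 2 (log2 difference 0.56, SE 0.27, 95% interval -0.16 to 1.28). Both promoters hold kappaB matches. Neither gene passed the test. Tnip2, which encodes another ABIN protein, was at 62.7 and 60.1 FPKM in WT against 70.2 and 60.6 FPKM in RBP-J KO.

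The classical IkB genes had no common direction. Nfkbia, which encodes IkB-alpha and is the best known feedback target of NF-kB, was at 187 and 204 FPKM in WT against 254 and 157 FPKM in RBP-J KO. It was thus 1.35-fold higher in pair 1 and 1.30-fold lower in pair 2. Nfkbib, which encodes IkB-beta, was at 36.9 and 71.1 FPKM in WT against 47.4 and 57.8 FPKM in RBP-J KO, with opposite signs in the pairs as well. Nfkbie, which encodes IkB-epsilon, was at 32.4 and 45.1 FPKM in WT against 53.3 and 45.9 FPKM in RBP-J KO. Its groups did not overlap, with 1.63-fold in pair 1 and 1.02-fold in pair 2. Bcl3, an atypical IkB protein that binds p50 and p52 dimers, was at 46.5 and 43.3 FPKM in WT against 62 and 52.1 FPKM in RBP-J KO. It was 1.33-fold and 1.20-fold higher without overlap (log2 difference 0.33, SE 0.21). Cyld, a deubiquitinase that removes activating chains, was at 68.3 and 65.2 FPKM in WT against 78.9 and 64.8 FPKM in RBP-J KO.

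**Figure D2:**
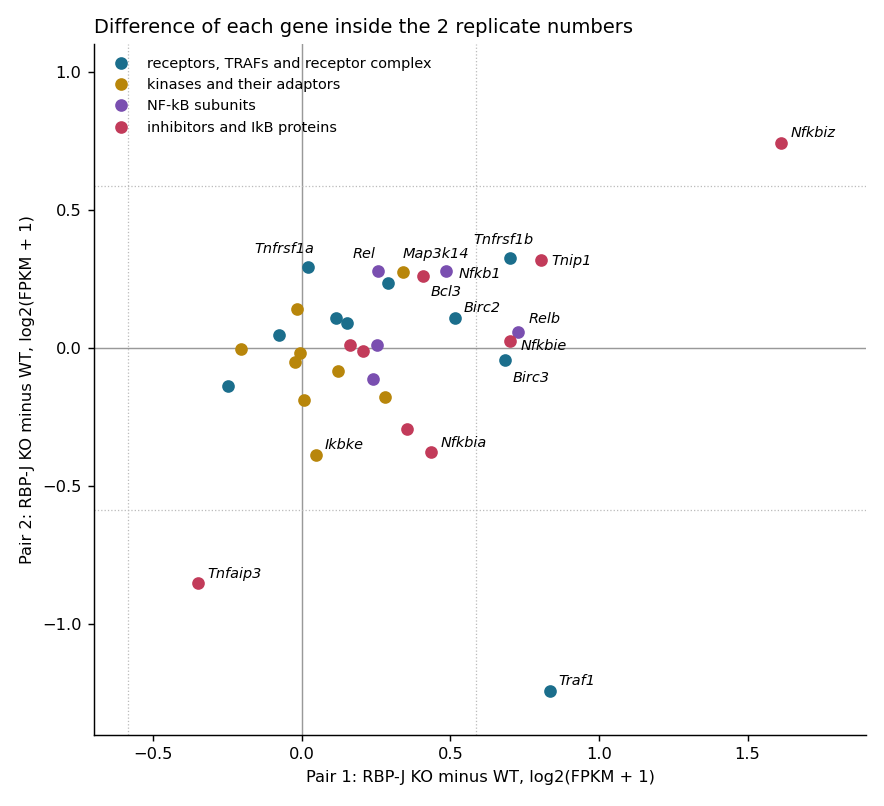
Log2 difference of RBP-J KO minus WT on the log2(FPKM + 1) scale for each of the 33 genes, pair 1 on the horizontal and pair 2 on the vertical axis, coloured by role; dotted lines mark 1.5-fold. Nfkbiz is the only gene of the 33 beyond 1.5-fold upwards in both pairs, and Traf1 lies beyond it in opposite directions.

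Gene totals hid differences between transcripts in the replicate 2 libraries, where 11 of the 33 genes are listed with 33 transcripts in all. These are values of 1 library per group, with no replicate check and no test, and estimates that divide reads among overlapping transcripts. For Ikbkg the total was 79.5 FPKM in WT against 76.8 FPKM in RBP-J KO, but its 7 transcripts were divided differently. Transcripts that encode isoform 1 summed to 35.6 FPKM in WT against 2.31 FPKM in RBP-J KO. Isoform 3 was at 4.24 FPKM in WT against 36 FPKM in RBP-J KO, and isoform 2 at 29.7 and 36.1 FPKM. Isoform 1 thus held 44.7% of the gene in WT and 3.01% in RBP-J KO, and isoform 3 held 5.33% and 46.9%.

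For Nfkbiz, isoform a was at 7.24 FPKM in WT against 20.7 FPKM in RBP-J KO, and isoform b was at 5.18 and 0.80 FPKM. Isoform a held 58.3% of the gene in WT and 96.3% in RBP-J KO. Its plain ratio of FPKM in pair 2 (2.85-fold) thus exceeded that of the gene total, which was at 12.4 FPKM in WT against 21.5 FPKM in RBP-J KO. In Cyld, transcript D was at 56.8 and 45 FPKM and transcript C at 3.98 and 18.2 FPKM (WT first), while the totals differed by 1.01-fold. Tnip1 kept its division, with 60.9% in WT and 62.1% in RBP-J KO for isoform 2. Both isoforms of Tnip1 were higher in RBP-J KO, at 33.2 and 40.2 FPKM for isoform 1 and 51.7 and 65.9 FPKM for isoform 2. In Traf3 the minor isoform b was at 0.93 and 4.52 FPKM beside 36.3 and 35.7 FPKM for isoform a. Tnfaip3 was lower in both of its transcripts, at 11.7 against 6.83 FPKM and at 19.3 against 9.90 FPKM. In the remaining 5 genes (Nfkb2, Map3k7, Tank, Ikbkb and Chuk) no transcript changed its share by more than 6.8 percentage points.

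**Figure D3:**
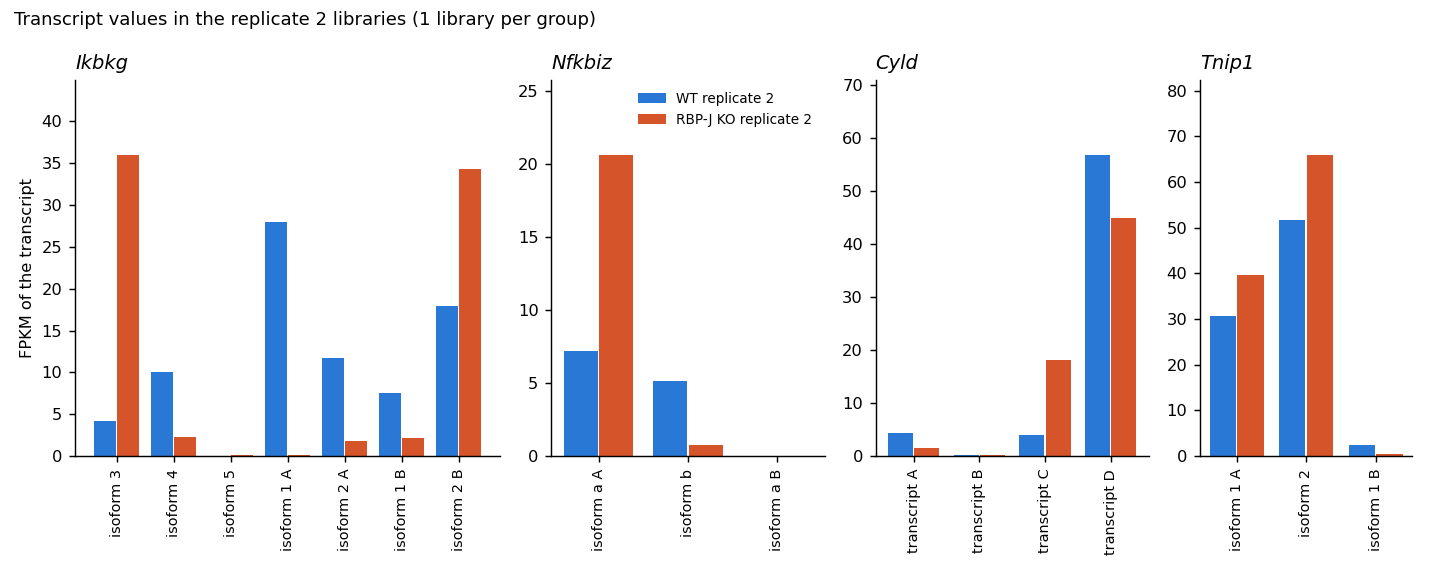
FPKM of each listed transcript of Ikbkg, Nfkbiz, Cyld and Tnip1 (vertical axes start at 0 and differ in scale) in WT replicate 2 (blue) and RBP-J KO replicate 2 (orange), 1 library per bar; isoform names are those of the deposited tables, and letters number transcripts of the same name. The division of Ikbkg and Nfkbiz among transcripts differs between the libraries, and that of Tnip1 does not to a like extent.

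Further genes of the pathway did not pass the test either. Of a list of 40 further receptors, adaptors, ubiquitin enzymes and death-signalling genes, all with an entry and tested, 0 passed the adjusted threshold and 2, Otud7b and Tbkbp1, had an unadjusted p under 0.05 (background 4.42%). The median log2 difference was 0.04, and 17 of the 40 genes were higher in both pairs (background 25.1%) and 9 lower (background 34.1%). Otud7b, a deubiquitinase that acts on TRAF3, was at 27.6 and 29.5 FPKM in WT against 13.2 and 16 FPKM in RBP-J KO. The groups lay apart, by 2.01-fold and 1.80-fold inside the pairs (log2 difference -0.93, SE 0.24, limma adjusted p = 0.777). Otud7b was the 1 of the 40 genes lower by 1.5-fold in both pairs (background 3.63%). None was higher by that fold in both (background 3.86%). Tbkbp1, an adaptor of TBK1, was at 74.1 and 73.8 FPKM in WT against 102 and 125 FPKM in RBP-J KO (log2 difference 0.61, SE 0.20, limma adjusted p = 0.999). Map3k8, the kinase TPL2 that is held by p105, was at 28.5 and 29.4 FPKM in WT against 62.5 and 38.1 FPKM in RBP-J KO. Traf3ip2, an adaptor of the IL-17 receptor, was at 13 and 13.4 FPKM in WT against 3.56 and 8.83 FPKM in RBP-J KO. In all 4 of these genes the groups did not overlap, but they were named for the smallest p in the same libraries. Of the 40 genes, both RBP-J KO libraries lay above both WT libraries for 6 (background 11.7%) and below for 2 (background 18.2%). Tnf itself, the ligand, was at 114 and 86.8 FPKM in WT against 122 and 95.9 FPKM in RBP-J KO.

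Known target genes of NF-kB did not share a direction. Of 30 listed, 27 passed the filter, and Il6, Nos2 and Csf3 were listed at 0 in all 4 libraries. Of the 27, 12 were higher (background 25.1%) and 7 lower (background 34.1%) in RBP-J KO in both pairs, with medians of 0.35 in pair 1 and 0.06 in pair 2, and 0 passed the adjusted threshold (2 at an unadjusted p under 0.05, background 4.42%). Irf1, a transcription factor that interferon also induces, was at 136 and 144 FPKM in WT against 361 and 239 FPKM in RBP-J KO. Vcam1, an adhesion molecule, was at 13.3 and 4.78 FPKM in WT against 31.1 and 27.5 FPKM in RBP-J KO. In both genes the groups did not overlap, and limma gave adjusted p = 0.726 for Irf1 and adjusted p = 0.912 for Vcam1. Of the 27 targets, both RBP-J KO libraries lay above both WT libraries for 6 (background 11.7%) and below for 5 (background 18.2%). Il1b, an inflammatory cytokine, was at 2.83 FPKM in WT against 57.1 FPKM in RBP-J KO of pair 1, and listed at 0 and at 4.48 FPKM in pair 2. Clec4e, a lectin receptor, was at 104 and 201 FPKM in WT against 82.6 and 80.8 FPKM in RBP-J KO. The 5 of 27 targets at least 1.5-fold higher in both pairs (background 3.86%) were Irf1, Vcam1, Il1b, Il1a and Bcl2a1b, named after their values were seen, and Bcl2a1b has near-identical paralogs that can share its reads. None was lower by 1.5-fold in both (background 3.63%). Il1a averaged 0.62 FPKM in WT against 5.1 FPKM in RBP-J KO, and so passed the filter on low values only through RBP-J KO. In pair 1, 10 of the 27 were at least 1.5-fold higher (background 10.3%) and none lower (background 12.1%). Among the 10, Il1a, Il12b, Ptgs2 and Ccr7 averaged under 1 FPKM in WT and passed the filter only through RBP-J KO. Their direction is thus tied to the filter, and nothing is drawn from their part in these counts. In pair 2, 6 were higher (background 6.48%) and 4 lower (background 8.18%) by that fold. In pair 1 Ccr7, also a dendritic cell marker, was at 0.81 and 32 FPKM.

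**Figure D4:**
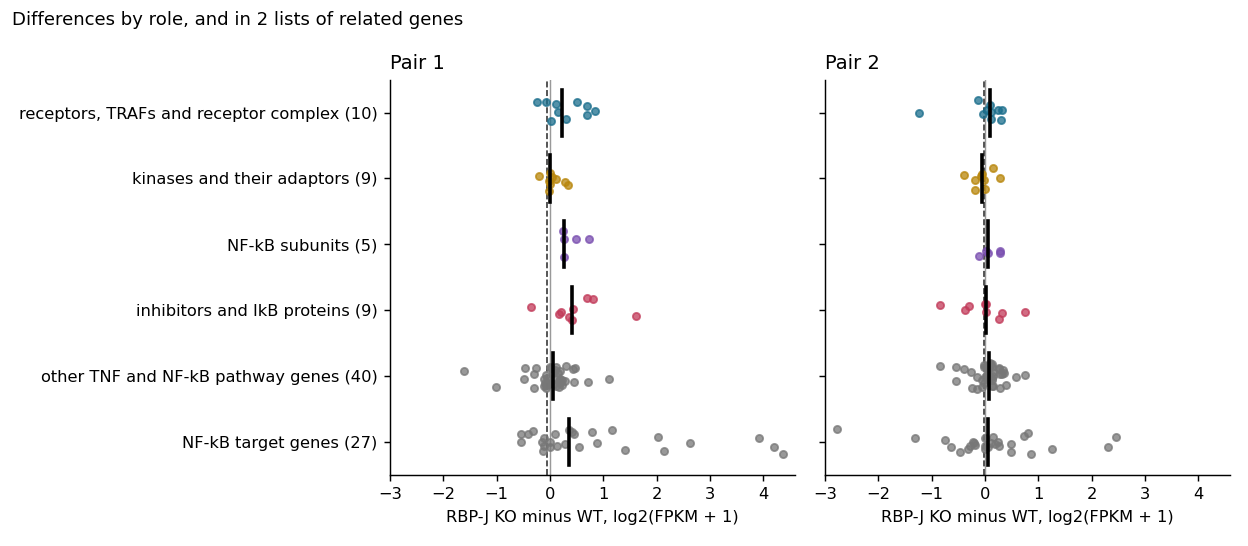
Log2 difference of RBP-J KO minus WT, log2(FPKM + 1), for each tested gene (points) by role and in the 2 further lists, pair 1 left and pair 2 right; black bars are medians, dashed lines the median of all genes tested, the number of genes is in parentheses. The inhibitors have a median of 0.41 in pair 1 and 0.01 in pair 2, and the kinases medians of 0.01 and -0.05.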

How the data were processed

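RNA-seq values of 4 libraries were used, 2 per group, grouped and numbered by their titles. The authors deposited values that were taken as FPKM, a unit the file headers do not name. Per the submitters' processing notes, TopHat and Cufflinks were used with mouse build mm9, and the sources used here give neither versions nor annotation. FPKM times transcript length in kb summed, in the replicate 2 libraries, to 5.61 (WT) and 5.32 (RBP-J KO) times what the unit's definition gives (lengths for 97.0% of transcripts). Read depth is unknown, so counting intervals cannot be given. No label says that replicates came from separate mice. Xist and Ddx3y separated the replicate numbers in both groups, so the spread within a group includes a difference between mice of different sex beside any technical one, and p-values reflect the spread of these libraries alone.

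Replicate 1 tables list 22026 genes. Replicate 2 tables list 27583 transcripts, which were summed per symbol, and 25 symbols turned into dates were restored by their descriptions. Genes averaging 1 FPKM or more (11851) were compared on the log2(FPKM + 1) scale, which understates changes of low genes, by limma 3.58.1 in R 4.3.3 (group as the only term, variance trend, two-sided, Benjamini-Hochberg over all genes, threshold 0.05), tested on simulated data. Folds are of FPKM + 1, except that of Nfkbiz isoform a, which is a plain ratio. Figures used Python 3.11.15 and matplotlib 3.10.9. Every member is given, and of each further list the 4 genes with the smallest p. Members and lists were chosen with earlier results of these data known. A listed marker gene is not reported here. The 13 alternatives are in the closing section.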

Additional observations from a re-analysis of the deposited data

How the results depend on the processing

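With 2 libraries per group, not even Rbpj with its 7.06-fold difference passed the adjusted threshold, so that not passing does not show an unchanged level. No gene passed the adjusted threshold under any of the 13 alternatives, and Nfkbiz was the 1 member at least 1.5-fold higher in both pairs, with none lower, under the 9 alternatives that keep all libraries. Counts over both pairs have no value when a library is left out. The variance trend, the block and the filters on low values, which every member passed, do not enter the pair differences or the log2 differences of members. Those settings could therefore not change the 1.5-fold counts of members or their signs. With the replicate number as a block, 1557 genes and 4 members (Nfkbiz, Tnfaip3, Tnfrsf1b and Tnip1) had an unadjusted p under 0.05, with 0 past the adjusted threshold and Nfkbiz at adjusted p = 0.219. Libraries of equal number shared deviations across genes (r = 0.64), but no label says that a number marks a shared mouse or day. Leaving out 1 library gave 321 to 783 genes and 0 to 2 members past the unadjusted threshold (Tnfaip3 and Traf1 without RBP-J KO replicate 1, Nfkbiz and Tnip1 without RBP-J KO replicate 2), and member medians of 0.01 to 0.24. A pseudocount of 5 gave 282 genes lower by 1.5-fold in both pairs. Members lower in both pairs numbered 2 under upper-quartile scaling, 2 under quantile normalization and 3 with the highest transcript per symbol. Log2 differences turned sign under upper-quartile scaling and quantile normalization for Ikbkg (0.007 and 0.007), Tbk1 (0.031 and 0.047) and Traf6 (0.028 and 0.027), and with the highest transcript for Cyld (-0.063) and Ikbkg (0.16). Leaving out 1 library turned the sign of 19 members in at least 1 case (8 without WT replicate 1, 6 without WT replicate 2, 9 without RBP-J KO replicate 1 and 6 without RBP-J KO replicate 2), with these ranges: Birc2 -0.049 to 0.67, Chuk -0.24 to 0.034, Cyld -0.043 to 0.24, Ikbkb -0.20 to 0.24, Ikbke -0.62 to 0.28, Ikbkg -0.23 to 0.16, Map3k7 -0.068 to 0.19, Nfkb2 -0.098 to 0.22, Nfkbia -0.32 to 0.37, Nfkbib -0.43 to 0.49, Rela -0.050 to 0.32, Ripk1 -0.23 to 0.045, Tank -0.30 to 0.40, Tbk1 -0.20 to 0.18, Tnfrsf1a -0.005 to 0.32, Tnip2 -0.019 to 0.19, Traf1 -1.45 to 1.04, Traf3 -0.082 to 0.30, Traf6 -0.19 to 0.16. With 1 library left out, the replicate numbers are unequal between the groups, and these fits have no term for them. The cause was not tested. The remaining 14 members kept their sign in every alternative run, although Birc3 among them had opposite signs inside the pairs (0.684 and -0.044).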

Other observations

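Some members differed more by replicate number than by group. Nfkbib was at 36.9 and 47.4 FPKM in the WT and RBP-J KO libraries of replicate 1, and at 71.1 and 57.8 FPKM in those of replicate 2. Ikbke was at 127 and 132 FPKM in replicate 1 against 240 and 183 FPKM in replicate 2. Among the further pathway genes, Tnfrsf11a, which encodes RANK, the receptor that starts osteoclast formation, was at 260 and 184 FPKM in replicate 1 against 61.6 and 81.2 FPKM in replicate 2. Xiap, an inhibitor of apoptosis, was at 244 and 264 FPKM in replicate 1 against 141 and 171 FPKM in replicate 2. These genes were chosen after their values were seen, and the replicate numbers also differ in file layout, so that the cause cannot be told apart.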
